A study of Mus musculus with 6 samples.

Results

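The interleukin-6 family consists here of 10 genes, the ligands Il6, Il11, Lif, Osm and Clcf1 and the receptor chains Il6ra, Il6st, Lifr, Osmr and Il11ra1, which were picked by name from the annotation of the arrays. All 10 were found, with 12 probes, among 36028 genes with a usable probe, and all 10 were among the 24648 genes tested. Expression was measured in N18-Fms cells, a G418-resistant subclone of the murine C2H prostate tumor cell line, which came from a prostate tumor of the TRAMP transgenic mouse model. The cells carried firefly luciferase and a retroviral c-fms cDNA, which encodes the CSF-1 receptor (CSF-1R), and had been sorted by flow cytometry. They were grown in DMEM with 10% fetal bovine serum and dihydrotestosterone, and were left unstimulated or given recombinant murine CSF-1 at 100 ng/mL for 24 h or 48 h, with 2 arrays in each of the 3 groups. N18-Fms is 1 subclone, and cells without the introduced receptor were not among the arrays, so that every group carried luciferase, the drug selection and c-fms alike.

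The cytokines encoded by these ligand genes signal through gp130, the receptor chain encoded by Il6st. IL-6 and IL-11 first bind their own alpha chains, encoded by Il6ra and Il11ra1, and then pair gp130 with itself, whereas LIF, oncostatin M and cardiotrophin-like cytokine factor 1 pair gp130 with the chain encoded by Lifr or by Osmr. The receptors activate JAK kinases and mainly STAT3, which turns on target genes, among them the inhibitor Socs3. In the prostate, IL-6 is known as a product of stromal, inflammatory and some tumor cells.

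The level of a gene is given throughout as the log2 of its spot signal minus the log2 of the 75th percentile of the array, so that a level of 0 is the signal that 75% of the spots do not exceed. Changes were tested with limma (2-sided, all 6 arrays in 1 fit, Benjamini-Hochberg adjustment over all genes tested), and a gene was called at an adjusted p-value under 0.05. With 2 arrays on each side, the smallest p-value of an exact test is 0.333. The RNA came from 2 independent experiments, but the labels do not say which arrays share an experiment. The scanner software found between 58.7% and 72% of the 59305 spots of an array to be well above background and 0 to be saturated. Replicate arrays differed with an SD between 0.371 and 0.395 on the log2 scale over the genes tested. The first 24 h replicate lay on another slide than the other 5 arrays. The Csf1r probe was well above background on all 6 arrays, at levels between 4.88 and 5.34.

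The labelled cell type was checked against marker genes. Of 11 prostate epithelial markers, Krt8, Krt5, Krt14 and Trp63 were well above background on all 6 arrays, whereas Cdh1, Tmprss2 and Hoxb13 were on none and Epcam on 1. Of 16 macrophage markers, 9 could be tested. Ptprc, Adgre1, Itgam, Fcer1g, Cd14, Mrc1 and Mpeg1 (7 of the 16) were well above background on all 6 arrays, and Lyz2, Cd163 and Spi1 were on none. The summed level of the list, as linear signal relative to the 75th percentile, was 44.0 and 49.5 in unstimulated cells. It was 37.7 and 45.3 at 24 h, and 33.3 and 42.2 at 48 h. Most of that sum came from Itgam, the brightest of the list, at a mean level of 5.31 in unstimulated cells. The log2 difference of Itgam was -0.43 at 24 h and -0.65 at 48 h, and it was not called. The macrophage markers Mrc1, Mpeg1 and Cd14 rose at both times, and between 1 and 3 of the list were higher with any 1 array left out. Of 8 fibroblast and stromal markers, 7 were tested, and Col1a1, Col1a2, Col3a1 and Pdgfrb fell at both times, whereas Dcn rose at both times and Pdgfra at 24 h. With any 1 array left out, between 0 and 4 of the list were lower at 24 h and between 0 and 3 at 48 h. The summed level of that list was 331 and 333 in unstimulated cells, 140 and 150 at 24 h, and 126 and 168 at 48 h. None of 3 lymphocyte markers tested was called, and all 3 were well above background on all 6 arrays. Of 6 prostate epithelial markers tested, 0 were called at 24 h, and Krt8 rose at 48 h (log2 difference 1.98, adjusted p = 0.0106 by limma). Beside these marker lists, 8.02% of all genes tested were higher and 5.99% lower at 24 h, and 6.58% and 7.38% at 48 h. With any 1 array left out, fewer of all genes tested were called too. The part of these lists in the changes of the cytokine genes was not tested. In RNA from whole cultures, fewer cells of a type and less RNA per cell cannot be told apart.

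CSF-1 stimulation went with higher signals of 4 of the 5 ligand genes at 24 h and with both higher and lower signals of receptor genes. At 24 h, Il6, Clcf1, Lif, Il11 and Lifr rose, Il11ra1 fell, and Osm, Il6ra, Il6st and Osmr were not called. The 6 genes called of 10 stand beside 14% of all genes tested, of which 8.02% were higher and 5.99% lower. At 48 h, Il6 and Clcf1 rose, Il11ra1 fell and the other 7 were not called, beside again 14% of all genes tested (6.58% higher and 7.38% lower). Il6, Clcf1 and Il11ra1 were thus called at both times, but both comparisons use the same unstimulated arrays. The median log2 difference of the 10 genes was 0.88 at 24 h and 0.34 at 48 h, against 0.04 and -0.04 over all genes tested. At 24 h, both stimulated arrays lay beyond both unstimulated arrays for 9 of the 10 genes, 7 above and 2 below, and at 48 h for 6, with 5 above and 1 below. The shares of all genes tested were 59% and 58.8%. Without adjustment, 3 members passed a p-value of 0.05 together with 2-fold at 24 h and 2 at 48 h, beside 7.68% and 6.49% of all genes tested. Il6 entered the test only through the 2 stimulated groups and Lif only through the 24 h group. Among genes well above background on all 6 arrays, 5 of the other 8 members were called at 24 h and 4 at 48 h, beside 17.4% and 19.4% of all such genes. With any 1 of the 6 arrays left out, fewer members and fewer of all genes tested were called at both times. The loss of calls in these fits was thus not limited to the members. With the slide as a block, fewer members were called at 24 h and 2 at 48 h, the latter beside 8.58% of all genes tested.

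**Figure D1:**
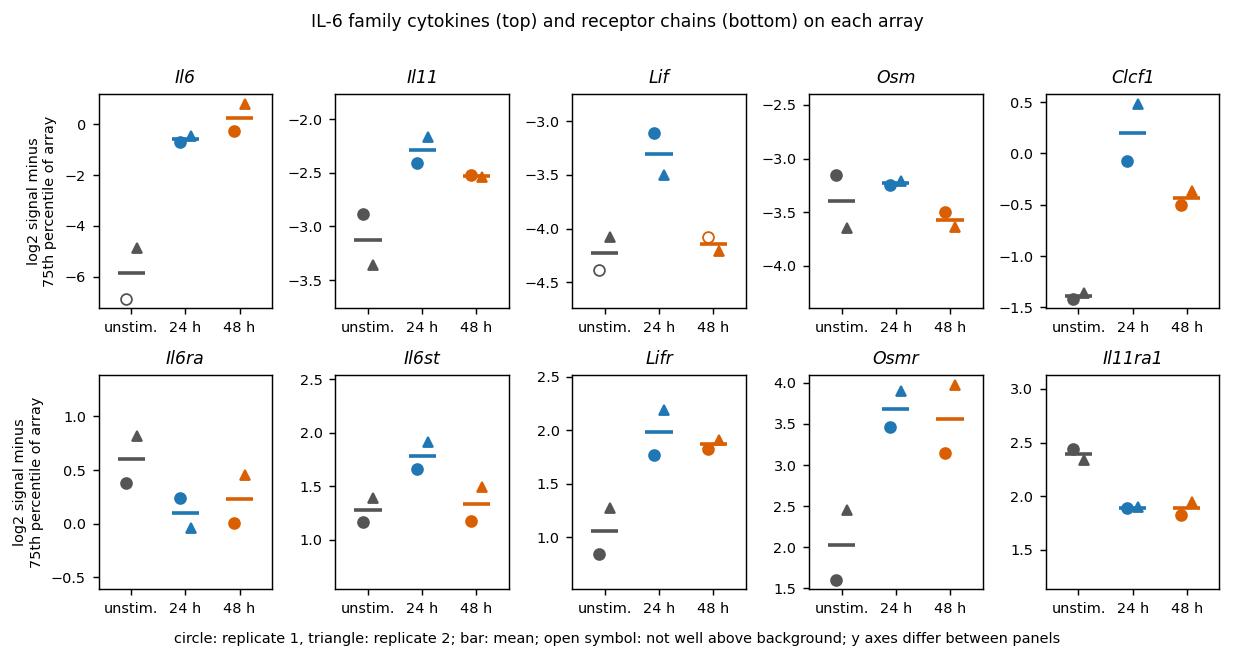
Each panel plots the log2 signal of a gene relative to the 75th percentile of the array (y axis, with a scale of its own for each panel) for the 2 arrays each of unstimulated cells and of both CSF-1 groups, with bars at the means and open symbols where the probe was not well above background. The second unstimulated array of Il6 is drawn filled although only 1 of its 2 spots was well above background. Il6, Il11, Clcf1, Lifr and Osmr lie higher on all 4 stimulated arrays than on both unstimulated arrays, and Il11ra1 lies lower.

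**Figure D2:**
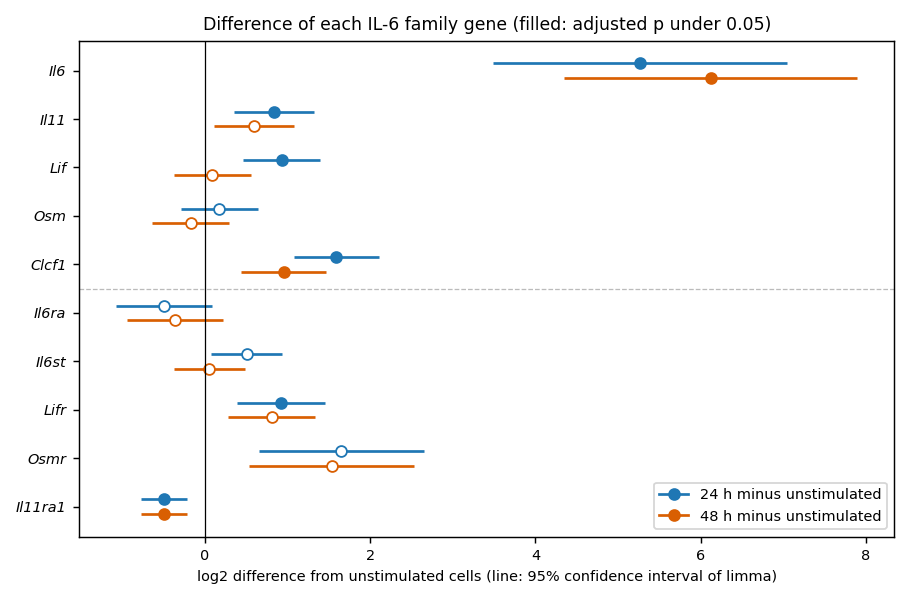
Differences of stimulated from unstimulated cells on the log2 scale (x axis) for the 5 ligand genes (above the dashed line) and the 5 receptor genes (below it), with the 95% confidence intervals of limma as lines and called genes filled. Il6 stands at 5.27 and 6.12, and the other 9 genes lie between -0.50 and 1.65.

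Among the ligands, Il6, which encodes the founding cytokine of the family, changed most. Its probe covers chr5:30346367-30346426 of mm9 on the plus strand, from base 945 of the transcript, and is spotted on each array in 2 copies. The sequence of 250 bases before the start of the gene is shown because Il6 is the gene on which the results turn most, together with those of Il11 and Lif, which also hold letters of the AP-1 motif. Capitals mark matches to a motif on the strand shown, of 5 motifs searched on both strands, and the sequences are those of RefSeq on GRCm38.p6, chr5:30012864-30013113 (plus strand) for Il6, chr7:4778142-4778391 (minus strand) for Il11 and chr11:4257318-4257567 (plus strand) for Lif.
Il6: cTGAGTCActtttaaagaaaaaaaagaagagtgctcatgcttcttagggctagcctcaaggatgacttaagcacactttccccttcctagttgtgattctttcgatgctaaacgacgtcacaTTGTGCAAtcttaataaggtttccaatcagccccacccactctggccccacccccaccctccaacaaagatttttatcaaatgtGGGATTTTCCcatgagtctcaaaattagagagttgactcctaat
Il11: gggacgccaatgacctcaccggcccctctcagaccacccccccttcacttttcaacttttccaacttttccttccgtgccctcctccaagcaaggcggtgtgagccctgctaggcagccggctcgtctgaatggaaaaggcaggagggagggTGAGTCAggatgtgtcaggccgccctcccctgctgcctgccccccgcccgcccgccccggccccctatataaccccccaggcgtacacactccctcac
Lif: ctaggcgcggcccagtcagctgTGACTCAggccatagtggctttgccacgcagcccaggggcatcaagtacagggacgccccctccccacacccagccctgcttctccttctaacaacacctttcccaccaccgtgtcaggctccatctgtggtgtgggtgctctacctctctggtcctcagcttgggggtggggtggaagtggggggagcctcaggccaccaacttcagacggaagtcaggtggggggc

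The Il6 sequence holds TGAGTCA, a match to the AP-1 motif TGANTCA, from base 249 to base 243 before the start. It also holds TTGTGCAA, a match to the C/EBP motif TTGNGNAA, from base 128 to 121, and GGGATTTTCC, a match to the NF-kB motif (GGG and TTCC with any 3 bases between), from base 44 to 35. The AP-1 motif was matched by TGAGTCA from base 98 to 92 in Il11 and by TGACTCA from base 228 to 222 in Lif, whereas a second annotated start of Il11 had no match to any motif searched. Of 32851 windows of the same length before mouse gene starts, 6.75% hold the AP-1 motif, 11.7% the C/EBP motif and 4.65% the NF-kB motif. The STAT motifs TTCNNNGAA and its form with any 4 bases in the middle, held by 7.02% and 5.85% of the windows, were not found in the 11 windows of the 8 members with an entry. Of the receptor genes, Il6ra had a C/EBP match on the opposite strand, from base 70 to 63, and Il6st, Lifr, Osmr and Il11ra1 had none of the 5. A match is a description of letters, and no binding was measured.

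The signal of Il6 was low in unstimulated cells and clear on each stimulated array. Its level was -6.86 and -4.85 on the unstimulated arrays, -0.71 and -0.47 at 24 h, and -0.28 and 0.80 at 48 h. The groups did not overlap. Il6 was 38.5-fold higher at 24 h (log2 difference 5.27 ± 0.71 SE, adjusted p = 0.0120) and 69.5-fold higher at 48 h (6.12 ± 0.71, adjusted p = 0.00859) by limma. The size rests on the unstimulated arrays, where 3 of the 4 spots were not well above background. The spots read 4.70 and 4.75 intensity units on the first unstimulated array and 36.9 and 5.37 on the second, of which 36.9 was well above background. The 24 h spots read between 328 and 441 units and the 48 h spots between 423 and 1065, all well above background. Each unstimulated array was also counted with the higher of the signal of the probe and the dimmest signal called well above background there. Il6 was then 18.6-fold higher at 24 h and 33.5-fold higher at 48 h. With normexp background correction, which adds an offset of 50 units to every spot before the log2 is taken and so narrows the differences of dim spots, the log2 differences were 2.45 and 3.22. Without the first unstimulated array the log2 difference was 4.26 at 24 h and 5.11 at 48 h, and without the second 6.27 and 7.12. The call was lost at 24 h without either 24 h replicate, and at 48 h without the first 48 h replicate. At 24 h it was also lost with the slide as a block. Only the first 24 h replicate lay on another slide, so that block in effect leaves this array out.

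**Figure D3:**
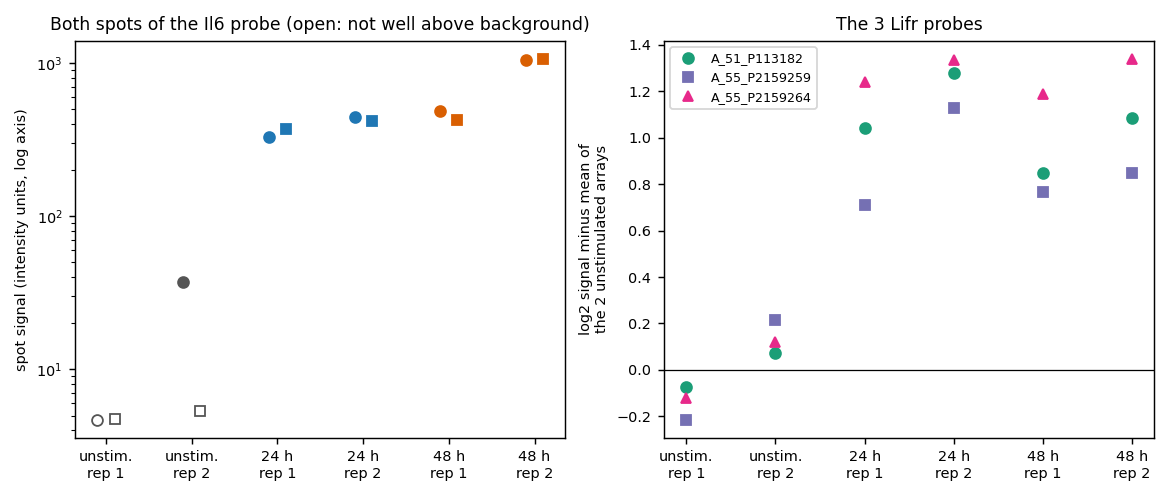
The left panel plots the signal of both spots of the Il6 probe on each array (intensity units, log axis), with open symbols for spots not well above background. The right panel plots the log2 signal of the 3 Lifr probes on each array minus the mean of the 2 unstimulated arrays, and each probe lies higher on all 4 stimulated arrays than on both unstimulated arrays.

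Clcf1 encodes cardiotrophin-like cytokine factor 1, which acts through the receptor of ciliary neurotrophic factor. Its probe (mm9, chr19:4222480-4222539, plus strand) was well above background on all 6 arrays. Its level was -1.42 and -1.36 in unstimulated cells, -0.08 and 0.48 at 24 h, and -0.50 and -0.37 at 48 h. Every stimulated array lay above both unstimulated arrays, and both 48 h arrays lay between those groups. Clcf1 was 3.01-fold higher at 24 h (log2 difference 1.59 ± 0.20 SE, adjusted p = 0.0107) and 1.93-fold higher at 48 h (0.95 ± 0.20, adjusted p = 0.0393) by limma. Its adjusted p lay between 0.0178 and 0.0776 at 24 h and between 0.0282 and 0.159 at 48 h when 1 array was left out. At 24 h the call was lost without either unstimulated array or the second 24 h replicate, and at 48 h without either unstimulated array or either 48 h replicate.

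Lif encodes leukemia inhibitory factor, and its gene neighbors that of Osm on chromosome 11, with probes at chr11:4172032-4172091 and chr11:4140146-4140205 of mm9. The level of Lif was -4.38 and -4.08 in unstimulated cells, -3.11 and -3.50 at 24 h, and -4.08 and -4.21 at 48 h. Both 24 h arrays lay above the other 4 arrays, and the 48 h arrays overlapped those of unstimulated cells. Lif was well above background on 1 of the 2 unstimulated arrays, on both arrays at 24 h and on 1 of 2 at 48 h. Lif thus entered the test only through the 24 h group. It was 1.90-fold higher at 24 h (log2 difference 0.93 ± 0.19 SE, adjusted p = 0.0343), whereas the difference at 48 h was 0.09 ± 0.19 (adjusted p = 0.803) by limma. The call at 24 h was lost with whichever array was left out (adjusted p between 0.0635 and 0.136). It was also lost under quantile normalization (0.56, adjusted p = 0.0879), median centring (0.64, 0.0506) and normexp background correction (0.25, 0.205), and without the filter on dim probes (0.93, 0.0941).

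Il11, the ligand that acts through Il11ra1, had a level of -2.89 and -3.36 in unstimulated cells, -2.41 and -2.17 at 24 h, and -2.52 and -2.54 at 48 h, all well above background (mm9, chr7:4724847-4724906, minus strand). The unstimulated arrays were the 2 lowest. Il11 was 1.78-fold higher at 24 h (log2 difference 0.83 ± 0.19 SE, adjusted p = 0.0464) and was not called at 48 h (0.59 ± 0.19, adjusted p = 0.104) by limma. At 24 h its call was lost with whichever array was left out, with an adjusted p between 0.0526 and 0.185. Under median centring the difference was 0.55 (adjusted p = 0.113).

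Osm, which encodes oncostatin M, was well above background on all 6 arrays at levels between -3.64 and -3.15, and both stimulated groups overlapped with the unstimulated arrays. Its log2 difference was 0.17 ± 0.19 at 24 h (95% confidence interval from -0.29 to 0.64) and -0.17 ± 0.19 at 48 h (from -0.64 to 0.29), with adjusted p-values of 0.594 and 0.587 by limma. At 24 h the sign turned under quantile normalization (-0.13) and median centring (-0.11).

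Among the receptor genes, Osmr and Lifr, which lie next to each other on chromosome 15, had the largest differences. Osmr encodes the oncostatin M receptor chain, and its probe lies at chr15:6763686-6763745 of mm9 on the minus strand. The level of Osmr was 1.61 and 2.46 in unstimulated cells, 3.47 and 3.90 at 24 h, and 3.15 and 3.98 at 48 h. All 4 stimulated arrays lay above both unstimulated arrays, although the unstimulated arrays themselves differed by more than those of the other receptor genes did. The difference was 3.14-fold at 24 h (log2 difference 1.65 ± 0.40 SE, adjusted p = 0.0524) and 2.89-fold at 48 h (1.53 ± 0.40, adjusted p = 0.0622) by limma, so that Osmr was not called at either time. At both times it passed under quantile normalization (0.0443 and 0.0490) and normexp background correction (0.0125 and 0.0147). It also passed with an intensity trend in the prior spread (0.0101 and 0.0121) and with only genes well above background on all 6 arrays (0.0320 and 0.0363). Osmr was called under 6 of 24 alternatives at each time. Those without a call included median centring (adjusted p = 0.0688 and 0.0771) and the authors' log2 values (0.0534 and 0.0635). With 1 array left out it was not called, and its log2 difference lay between 1.22 and 2.08 at 24 h and between 1.11 and 1.96 at 48 h.

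Lifr, the chain shared by LIF and Clcf1, was measured by 3 probes, of which 2 are annotated to 1 transcript (mm9, chr15:7141150-7141209 and chr15:7147319-7147378) and the third to transcript variant 2 (chr15:7135072-7135131). The brightest of them, which represents the gene, had a level of 0.85 and 1.27 in unstimulated cells, 1.77 and 2.19 at 24 h, and 1.83 and 1.91 at 48 h. The stimulated arrays did not overlap with the unstimulated ones. The probe was 1.89-fold higher at 24 h (log2 difference 0.92 ± 0.21 SE, adjusted p = 0.0459) and 1.75-fold higher at 48 h (0.81 ± 0.21, adjusted p = 0.0619). With each probe tested on its own, the other probe of that transcript rose by 1.16 (adjusted p = 0.0130) at 24 h and 0.97 (0.0220) at 48 h. The probe of transcript variant 2 rose by 1.29 (0.00864) and 1.26 (0.00900). The difference between the probes was not tested. For the brightest probe, the call at 24 h was lost with whichever array was left out (adjusted p between 0.0767 and 0.173) and under median centring (0.64, adjusted p = 0.131).

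Il11ra1, the alpha chain for IL-11, fell at both times (mm9, chr4:41716285-41716344, plus strand). Its level was 2.44 and 2.34 in unstimulated cells, 1.89 and 1.90 at 24 h, and 1.83 and 1.95 at 48 h. Both unstimulated arrays lay above the 4 stimulated ones. The stimulated cells had 70.9% of the unstimulated signal at 24 h (log2 difference -0.50 ± 0.11 SE, adjusted p = 0.0438) and 70.6% at 48 h (-0.50 ± 0.11, adjusted p = 0.0429) by limma. The difference kept its sign under every alternative at both times, but the call was lost with whichever array was left out, with an adjusted p of 0.0764 to 0.164 at 24 h and 0.0892 to 0.210 at 48 h. Il11ra2, a close copy of this gene, has no probe of that name, and whether the probe can tell the copies apart was not tested.

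Il6st and Il6ra, the chains used by IL-6, were well above background on all 6 arrays and were not called at either time. The level of Il6st was 1.17 and 1.39 in unstimulated cells, 1.66 and 1.91 at 24 h, and 1.17 and 1.49 at 48 h. The 24 h arrays were the 2 highest, while the 48 h arrays overlapped those of unstimulated cells. The log2 difference of Il6st was 0.50 ± 0.17 at 24 h (95% confidence interval from 0.07 to 0.94, adjusted p = 0.116) and 0.05 ± 0.17 at 48 h (from -0.38 to 0.48, adjusted p = 0.878) by limma. At 24 h Il6st passed with normexp background correction (adjusted p = 0.0457), and under median centring its difference was 0.22 (0.512). Il6ra had a level of 0.38 and 0.81 in unstimulated cells, 0.24 and -0.04 at 24 h, and 0.01 and 0.46 at 48 h. Its 24 h arrays lay below both unstimulated arrays and its 48 h arrays overlapped with them. The log2 difference of Il6ra was -0.50 ± 0.23 at 24 h (from -1.08 to 0.08, adjusted p = 0.218) and -0.37 ± 0.23 at 48 h (from -0.95 to 0.21, adjusted p = 0.348). The probes lie at chr13:113296586-113296645 (plus strand) for Il6st and chr3:89674054-89674113 (minus strand) for Il6ra, in mm9.

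The 24 h and 48 h arrays were also compared directly. None of the 10 genes was called by limma, and 0 of all genes tested were called, with the same count of 0 members by the methods' t-test after adjustment. At an unadjusted p-value under 0.05, 3 members were lower at 48 h, beside 13.6% of all genes tested in either direction. These were Lif (log2 difference -0.84 ± 0.19, adjusted p = 0.179), Clcf1 (-0.64 ± 0.20, adjusted p = 0.278) and Il6st (-0.45 ± 0.17, adjusted p = 0.347). For Il6 the difference of 48 h from 24 h was 0.85 ± 0.71 (95% confidence interval from -0.93 to 2.63, adjusted p = 0.640).

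The 3 genes whose levels followed those of Il6 most closely over the 6 arrays, by the root mean square difference of their centred log2 values, were Gbp3, Rtp4 and Igtp. The measure was 0.30 for Gbp3, which encodes a guanylate-binding protein, 0.31 for Rtp4, which encodes a receptor transporter protein, and 0.43 for Igtp, which encodes an immunity-related GTPase. The log2 differences were 5.20 and 6.10 for Gbp3, 5.55 and 6.37 for Rtp4, and 5.37 and 7.04 for Igtp at 24 h and 48 h. Gbp3 was well above background on 5 of the 6 arrays, and with normexp correction and its offset the differences of Gbp3 were 3.42 and 4.30. The likeness rests in part on the unstimulated values of Il6, of which 3 of 4 spots were not well above background. The genes were selected among all genes tested for this likeness, which is given as a description over 6 arrays.

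Among other genes of the gp130 family, lower levels but no higher ones were called by limma. Of 11 such ligands and receptors, 10 had a probe and 7 were tested, of which 0 were called higher, adjusted or not, and 2 lower at each time. Beside this list and those below, 8.02% of all genes tested were higher and 5.99% lower at 24 h. At 48 h these shares were 6.58% and 7.38%. Cntf, which encodes ciliary neurotrophic factor, fell by 0.57 at 24 h (adjusted p = 0.0377) and by 0.74 at 48 h (0.0208) on the log2 scale. Ctf1, which encodes cardiotrophin 1, fell by 0.66 at 24 h (0.0325), and its log2 difference at 48 h was -0.40 (0.103). With any 1 array left out, 0 of the 7 genes were called at 24 h and between 0 and 2 at 48 h. The median log2 difference of the list was -0.05 at 24 h and -0.29 at 48 h.

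Genes of the signalling cascade below gp130 moved in part. Of 12 tested genes for JAK kinases, STAT factors, adaptors and a phosphatase, 3 rose at 24 h and 4 at 48 h and 0 fell, with a median of 0.18 and 0.13. In the fits without 1 array, between 1 and 3 were higher at 24 h and 1 or 2 at 48 h. Stat5a rose by 3.60 (adjusted p = 0.00176) and 2.39 (0.00393) at the respective times, and Stat3, the main factor activated by gp130, by 1.35 (0.0129) and 1.04 (0.0256). The adjusted p of Stat3 after 1 array was left out lay between 0.0278 and 0.0901 at 24 h and between 0.0540 and 0.115 at 48 h, and that of Stat5a stayed at or below 0.0420. Of the 9 feedback inhibitors tested, 5 rose and 0 fell at each time, with a median of 1.27 and 1.16. Socs3, which blocks signalling at gp130, rose by 3.74 (0.00290) and 2.91 (0.00461), and Cish, another inhibitor of the SOCS family, by 3.38 (0.00145) and 3.05 (0.00142). With 1 array left out, between 2 and 5 of the inhibitors were higher at 24 h and between 2 and 4 at 48 h, and the adjusted p-values of Socs3 and Cish stayed at or below 0.0491.

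Of the 17 tested genes known as STAT3 targets, 9 rose and 2 fell at each time, with a median of 0.996 at 24 h and 0.881 at 48 h. Bcl3, a nuclear IkB protein, rose by 3.55 (adjusted p = 0.00134) and 2.84 (0.00142), Ier3, an immediate early gene, rose by 2.96 (0.00283) and 2.20 (0.00497), and the repressor gene Bcl6 fell by 1.55 (0.00309) and 1.29 (0.00428). Between 3 and 9 of the list were higher at 24 h and between 2 and 7 at 48 h when 1 array was left out, and the adjusted p of Bcl6 then reached 0.0464 and 0.0522. Of 19 acute phase genes, which IL-6 is known to induce in liver, 11 were tested. At 24 h 4 rose and 0 fell, and at 48 h 2 rose and 1 fell, with a median of 1.07 and -0.20. Some of those that rose, Serpina3n among them, entered the test only through stimulated groups. Serpina3n, a serine protease inhibitor, had a log2 difference of 5.58 at 24 h (0.0112) and 4.02 at 48 h (0.0263). Only 1 of its 2 unstimulated arrays was well above background, and with these counted as for Il6 it was 45.9-fold and 15.6-fold higher. The lowest log2 differences of Serpina3n among the alternatives were 3.96 at 24 h and 2.53 at 48 h. Lcn2, which encodes lipocalin 2, rose by 1.84 (0.00613) and 0.80 (0.0475). With 1 array left out, between 0 and 5 acute phase genes were higher at 24 h and 0 or 1 at 48 h, and the adjusted p reached 0.0801 and 0.110 for Serpina3n and 0.0555 and 0.195 for Lcn2.

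Of 14 tested genes that regulate Il6 transcription or the decay of its mRNA, 5 rose and 0 fell at each time, with a median of 0.61 and 0.46. Cebpd, which encodes a C/EBP factor, rose by 2.70 at 24 h (adjusted p = 0.0130) and by 2.17 at 48 h (0.0237). Zfp36, which encodes the mRNA decay factor tristetraprolin, was well above background on no unstimulated array. Its log2 difference was 2.50 at 24 h (0.00269) and 2.14 at 48 h (0.00314). With the unstimulated arrays counted as for Il6, it was 5.57-fold higher at 24 h and 4.34-fold higher at 48 h. The lowest log2 differences of Zfp36 among the alternatives were 0.84 at 24 h and 0.69 at 48 h. The adjusted p of Cebpd reached 0.0899 and 0.119 with 1 array left out, and that of Zfp36 0.0414 and 0.0331. Between 1 and 6 of the 14 genes were higher at 24 h and 1 or 2 at 48 h in those fits.

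**Figure D4:**
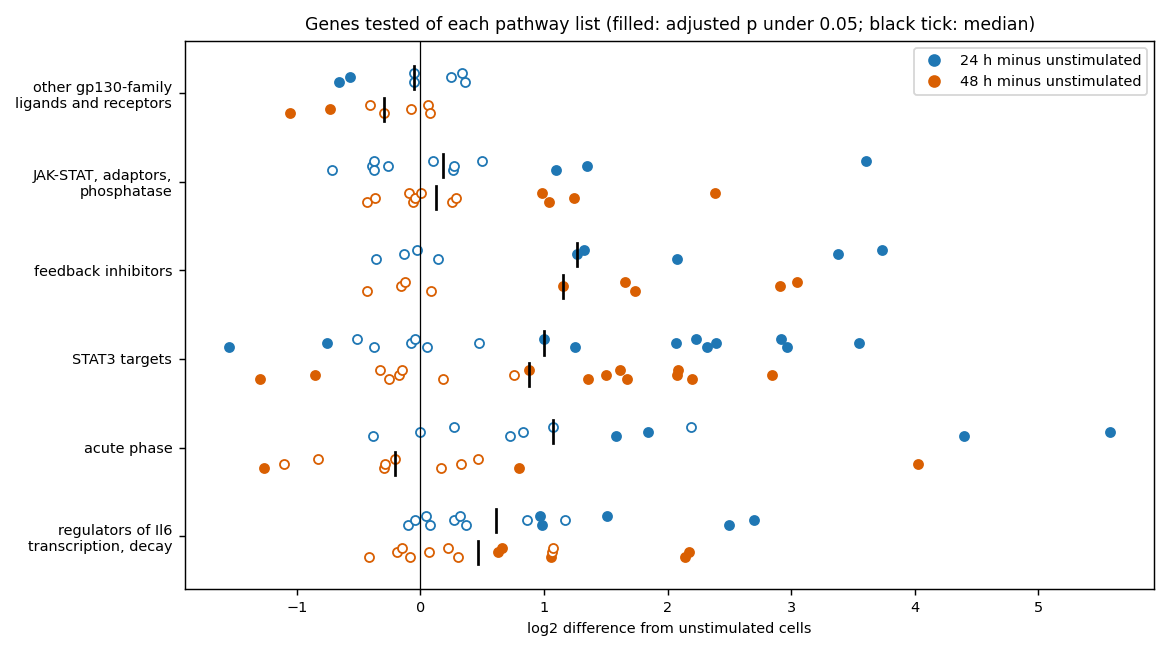
Log2 differences of stimulated from unstimulated cells (x axis) for each tested gene of 6 lists related to gp130 signalling and to Il6, at 24 h and 48 h, with called genes filled and a black tick at the median of each list. The 5 feedback inhibitors called lie at 1.16 or above at both times, and the called genes among the other gp130-family ligands and receptors lie below 0.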

How the data were processed

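RNA of N18-Fms cells was labelled with Cy3 and hybridized on 6 single-color Agilent mouse arrays, and groups were taken from the sample labels. The labels and the results of the study give stimulation for 24 h and 48 h, whereas its methods give other times. The authors deposited, for each array, the output of Feature Extraction 11.0.1.1 with the background-subtracted signal of each spot, a linear intensity not normalized between arrays, together with mean and local background intensities and flags. A second file that the authors deposited holds log2 values of part of the probes, in which 99.78% of the differences between arrays lay within 0.05 of those of the log2 signal over 44323 probes, apart from a constant per array. The medians of its columns lie between -0.04 and 0.17, and the centring of each probe in it is not stated. Outlier spots were dropped, the signals of a probe's repeated spots were averaged on the linear scale, and levels were computed as the log2 of that mean minus the log2 of the array's 75th percentile. The brightest probe stood for a gene. A gene entered the test when its probe was well above background on both arrays of any group (for a probe with several spots, when at least 1 in 2 of them was). Probes without a usable spot on some array numbered 303 and were dropped.

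The comparisons used limma 3.58.1 (lmFit and eBayes) in R 4.3.3, and the files were read with data.table (version 1.17.8). The fit was tested on simulated data. The number of arrays limits the precision. The members, the gene lists and the rule for named genes were chosen with earlier results of these data known. Named genes are all 10 members, up to 2 genes of each list per direction, those with the largest mean change of the genes called at 24 h and at 48 h, any called gene among the other gp130-family genes (some genes of the lists are not reported here), and the 3 genes most like Il6. In the marker lists, the other genes named (Col1a1, Col3a1, Cd14, Pdgfra and the markers named for their detection) were chosen after their values were seen. Probe positions are those of the files on mm9. The files do not say whether a probe lies in a coding exon or a UTR. Sequences before gene starts are from RefSeq on GRCm38.p6, which had entries for 8 of the 10 members. Alternatives covered scaling, normexp background correction with an offset of 50, the authors' log2 values, filters, probes per gene, the prior spread, the arrays in the fit, blocks, the t-test of the methods, the call rule and each array left out. The average of log2 spot values and each Il6 spot alone were added after the data were seen.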

Additional observations from a re-analysis of the deposited data

How the results depend on the processing

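Of the members, 6 were called at 24 h and 3 at 48 h, and 0 between the times under every alternative. Median centring gave 3 and 1 (beside 19.9% and 12.6% of all genes called in the same fit), no filter on dim probes 2 and 1 (3.67% and 2.41%), and with the methods' t-test at an unadjusted p and 2-fold 2 and 1 (5.49% and 4.71%), or 0 and 0 after Benjamini-Hochberg adjustment, which left 0 of all genes. At 24 h, 2 were called with only the 2 groups compared in the fit (10.3%), 1 with the slide as a block (4.37%), 7 with normexp background correction (17.9%) and 3 at an unadjusted p and 2-fold by limma (7.68%). At 48 h, 5 were called with normexp background correction (19.4%) and 5 with an intensity trend in the prior spread (22.2%). With 1 array left out, fewer members and fewer of all genes tested were called at both times, where a group with a single array was taken to vary like the others. The cause was not tested. Median centring moved the median of all genes at 24 h from 0.04 to -0.25, so that differences smaller than this shift depend on the scaling. Il6 and Clcf1 kept their sign under all alternatives at both times, as did Il11, Il6ra, Lifr, Osmr and Il11ra1. The log2 differences whose sign turned were small ones that were not called. Osm at 24 h was -0.13 under quantile normalization and -0.11 under median centring. Lif at 48 h was -0.0575 under quantile normalization, -0.0127 under median centring and -0.0086 with normexp, and Il6st at 48 h was -0.0481 under median centring. Between 48 h and 24 h, median centring turned Lifr to 0.0728, Osmr to 0.0669 and Il11ra1 to 0.18, and Il11ra1 was 0.0018 under quantile normalization, 0.0186 with normexp and 0.0032 in the authors' log2 values. With 1 array left out, the range was -0.0745 to 0.42 for Osm at 24 h, and at 48 h -0.0649 to 0.24 for Lif, -0.42 to 0.0713 for Osm and -0.11 to 0.21 for Il6st. Between the times it was -0.0935 to 0.35 for Il6ra, -0.32 to 0.0986 for Lifr, -0.53 to 0.30 for Osmr and -0.0667 to 0.0561 for Il11ra1. Signal over background limits Il6 and Lif, whose unstimulated signals were at or near the background.

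With the replicate number as a block, 5 members were called at 24 h and 5 at 48 h, beside 15.4% and 16.1% of all genes. The labels do not say that a number marks a shared experiment, and with 2 arrays a group the correlation of same-numbered deviations (0.128, 0.094 and 0.199 for the 3 pairs of groups) does not settle the pairing. In that fit Osmr was called at both times (adjusted p = 0.0122 and 0.0143) and Lifr at 48 h (0.0333), Il6st was called at 24 h (0.0403), whereas Lif (0.0517) and Il11ra1 (0.0510) were not called at 24 h, nor was Il11 (0.0644).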
